A study of Mus musculus with 5 samples.

Results

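RXRα peaks near 8 dual specificity phosphatase genes (Dusp1, Dusp2, Dusp3, Dusp4, Dusp5, Dusp6, Dusp10 and Dusp16) were examined in mouse alveolar macrophages (AMs). The genes were chosen by name with peak numbers of these same libraries already known, so their peak numbers and strengths are given as a description, with no test. A peak was given to a gene when, of all protein-coding transcription start sites (TSSs) of the mm10 genome, one of that gene's lay nearest to the peak midpoint. By this rule 72 of the 14808 peaks in the 4 lists belonged to these genes, which are 8 of 21924 protein-coding genes in the annotation. RXRα binding was profiled by HT-ChIPmentation, in which formaldehyde-fixed chromatin is immunoprecipitated with an anti-RXRα antibody and the sequencing adaptors are inserted by a transposase while the chromatin is still on the beads. All mice carried floxed alleles of both Rxra and Rxrb. The WT libraries, WT A and WT G, came from mice without Cre (CD11cCre- Rxrabfl/fl), and the KO libraries, KO A and KO G, from mice with Cre driven by Cd11c (CD11cCre+ Rxrabfl/fl), which directs the deletion to cells that use that promoter. The cells were sorted by flow cytometry from bronchoalveolar lavage, and 1 input sample from mice without Cre served as the peak-calling control. The labels do not say whether libraries A and G of a genotype came from separate mice, so differences between them may be technical. Peaks of a transcription factor do not measure expression, so the cell type was not checked. RXRα is the product of Rxra, so its peaks bear on that deletion. How complete it was, and any deletion of Rxrb, was not measured here.

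Dual specificity phosphatases remove phosphate from both the threonine and the tyrosine of their substrates, and those called MAPK phosphatases switch off the MAP kinases ERK, JNK and p38. Many of their genes are themselves induced by MAP kinase signaling, which makes them negative feedback regulators, and in macrophages they limit the response to inflammatory stimuli. RXRs bind DNA as heterodimers with receptors such as PPARγ, LXR and RAR, on repeats of a hexamer whose spacing differs between partners.

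The 2 WT libraries gave 4751 (WT A) and 9766 peaks (WT G), and the 2 KO libraries 83 (KO A) and 208 (KO G). Sequencing depth differed between libraries. Derived from the deposited values and relative to the input, it was 1.13 for WT A and 0.237 for WT G, and 0.647 and 0.848 for the KO libraries A and G. The median WT A peak rested on 16 fragments at its summit and the median WT G peak on 8, with 14 and 12 in the KO lists. WT G, the shallower WT library, had the longer WT list, while in KO the deeper library had it, and the part of depth in the peak numbers was not tested. Peaks of WT A and WT G that overlapped by at least 1 bp were merged, and the 3423 merged regions with a peak of each WT library are called shared regions. The 8 genes had 45 of the 10461 regions found in either WT list and 21 of the 3423 shared regions. The shared regions are numbered within each gene by their position along the chromosome.

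The sequences around the summits of 8 of these regions and of 1 further promoter are shown first, since the regions below are referred to by them. Each is the plus strand of mm10 from 5′ to 3′, 101 bases centered on the summit of the region's stronger peak by −log10 q. Capitals mark the motif matches described with the binding motifs below, and a run with no capitals held none of them. The first 6 are the regions with the lowest sum of −log10 q ranks over both WT lists (Dusp1 region 8, tied with region 7, is left out) and those with a KO peak, and the others were added after their values were seen, because they hold a DR4 or AP-1 match or cover the Dusp6 promoter.
Dusp6 region 6, chr10:99459969-99460069: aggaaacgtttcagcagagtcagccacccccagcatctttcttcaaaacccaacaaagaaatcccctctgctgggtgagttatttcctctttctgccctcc
Dusp6 region 2, chr10:99270543-99270643: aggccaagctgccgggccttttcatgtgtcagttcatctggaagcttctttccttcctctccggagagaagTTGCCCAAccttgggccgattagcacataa
Dusp6 region 1, chr10:99268845-99268945: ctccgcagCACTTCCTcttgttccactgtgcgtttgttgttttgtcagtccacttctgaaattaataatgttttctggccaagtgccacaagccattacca
Dusp5 region 3, chr19:53536122-53536222: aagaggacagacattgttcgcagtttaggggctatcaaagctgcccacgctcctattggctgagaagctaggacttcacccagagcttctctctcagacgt
Dusp5 region 1, chr19:53477437-53477537: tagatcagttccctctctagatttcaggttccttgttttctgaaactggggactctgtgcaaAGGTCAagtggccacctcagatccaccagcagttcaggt
Dusp1 region 7, chr17:26532686-26532786: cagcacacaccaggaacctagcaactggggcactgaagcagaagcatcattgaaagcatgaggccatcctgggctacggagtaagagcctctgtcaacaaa
Dusp1 region 5, chr17:26514773-26514873: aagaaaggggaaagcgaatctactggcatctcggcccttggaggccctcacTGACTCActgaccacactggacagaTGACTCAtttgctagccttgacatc
Dusp1 region 9, chr17:26571437-26571537: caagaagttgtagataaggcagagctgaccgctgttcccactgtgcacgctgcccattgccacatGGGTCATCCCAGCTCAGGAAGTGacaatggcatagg
Dusp6 promoter peak of WT A, chr10:99263115-99263215: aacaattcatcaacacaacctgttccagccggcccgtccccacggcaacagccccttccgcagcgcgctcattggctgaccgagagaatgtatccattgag

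The peaks were concentrated on Dusp1, Dusp6 and Dusp5, whose products include a nuclear phosphatase of p38 and JNK and 2 enzymes selective for ERK. This rests on protein-coding TSSs alone: with TSSs of all gene types 3 shared regions stayed with Dusp1 and 0 with Dusp5 or Dusp6. The 8 genes had 25 peaks in WT A and 44 in WT G, against 1 and 2 in the KO lists A and G. These are 0.526%, 0.451%, 1.20% and 0.962% of the respective lists, so the share held by the 8 genes was no smaller in the KO lists, each of which rests on 1 or 2 peaks. The mean was 34.5 ± 13.4 peaks (SD, n = 2) in the WT libraries and 1.5 ± 0.707 (SD, n = 2) in the KO libraries, a ratio of 23.0. Neither WT library overlapped either KO library in this number, but 2 libraries against 2 cannot give a two-sided p below 0.333 in an exact permutation test, and none was run. For the 8 genes the ratio was 42.0 at −log10 q of at least 5, and with TSSs of all gene types no KO peak was left. The ratio over the whole lists was 49.9, so the loss of peaks was not particular to these genes.

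Of the 8 genes, 5 were nearest to a shared region (62.5%, exact 95% interval 24.5 to 91.5), and the same 5 had a peak in WT A and in WT G, where 10.4% and 16.6% of all protein-coding genes had one. Over all protein-coding genes 8.82% were nearest to a shared region. The 5 genes became 3 with TSSs of all gene types, at −log10 q of at least 5, or at 50% overlap of both peaks. In KO A 1 of the 8 genes had a peak, where 0.351% of all genes did, and in KO G 2 did, where 0.858% of all genes did. Both Dusp1 and Dusp6 were nearest to 5 or more shared regions, which 0.406% of all genes were (89 genes). The genes were chosen with these lists in view, so nothing is read from the excess over these background shares.

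**Figure D1:**
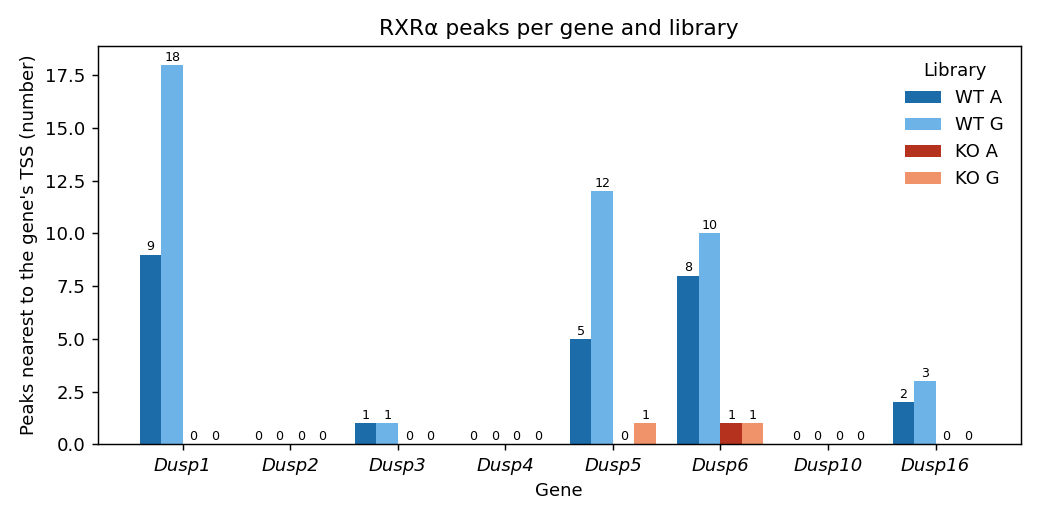
Number of RXRα peaks nearest to each gene's TSS in the 4 libraries, with 1 bar per library and the number above it. Dusp1 had 9 peaks in WT A and 18 in WT G and none in either KO list, while Dusp2, Dusp4 and Dusp10 had none in any list.

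Dusp1 encodes MKP-1, a nuclear phosphatase that inactivates p38 and JNK and is induced quickly by inflammatory and stress signals. The gene (ENSMUSG00000024190.7) lies on the minus strand at chr17:26505590-26562128. It had 9 peaks in WT A and 18 in WT G but 0 in each KO list, and 9 shared regions, a number that 11 of the 1933 genes nearest to any shared region reached or passed, Dusp1 included. The stretch of genome nearer to a Dusp1 TSS than to any other gene's spans 90.0 kb, so Dusp1 held 10 shared regions per 100 kb, against 0.126 over the whole genome. With TSSs of all gene types 3 shared regions stayed with Dusp1. With 1 TSS per gene 3 shared regions were nearest to it, which need not be among these 9. All 9 shared regions lacked a KO peak.

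The 9 Dusp1 regions formed 4 groups along the chromosome. Region 1 (chr17:26464804-26465278) stood alone at 43.4 kb, in the promoter of the long noncoding RNA gene AC122252.3. Its fold enrichment was 6.65 in WT A and 7.09 in WT G, with −log10 q of 7.12 and 6.88. Fold enrichment is the ratio of ChIP pileup to local background at the summit, after a small constant (a pseudocount) is added to both. The pseudocount lowers this ratio more where the background is low, and the genome-wide background was lower in WT G than in WT A. Fold enrichments of different libraries are therefore not on the same scale.

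The second group covered the 3′ end of Dusp1 and the noncoding gene AC122252.2 that follows it. Region 2 (chr17:26502232-26503034), at 5.84 kb and in an exon of AC122252.2, and region 3 (chr17:26504650-26505197), at 3.55 kb and at the transcription termination site of Dusp1, had equal values, with a fold enrichment of 5.15 (WT A) and 6.45 (WT G). Region 4 (chr17:26505468-26506378), at 2.55 kb in an exon of Dusp1, reached 5.34 in WT A and 7.01 in WT G. These 3 regions were among the weaker shared regions, at places 2757, 2757 and 2096 of 3423 by the sum of both −log10 q ranks.

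The third group lay upstream of the main TSS, inside an intron of a longer Dusp1 transcript, whose distal TSS is the outer end of the gene record. Region 5 (chr17:26514611-26515040) was at −6.31 kb, with a fold enrichment of 5.15 in WT A (−log10 q 3.43) and 9.03 in WT G (−log10 q 10.5). The other three, region 6 (chr17:26531479-26531989), region 7 (chr17:26532497-26533093) and region 8 (chr17:26533247-26535723), followed one another at −23.2, −24.3 and −26.0 kb. Regions 7 and 8 were the highest-ranked of Dusp1, both with a fold enrichment of 7.11 (WT A) and 9.03 (WT G) and −log10 q of 8.06 and 10.5, at place 929. Region 6 was weaker, at 5.93 and 6.43. Region 8 also held 1 further peak of each WT list whose own midpoint was nearer to the neighboring gene Ergic1.

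Region 9 (chr17:26570887-26571804) was the strongest Dusp1 region in WT A, with a fold enrichment of 9.85, −log10 q of 14.7 and 24 fragments at the summit, against 7.09, 6.88 and 10 fragments in WT G. Its place at −9.22 kb is counted from the distal TSS, and the region itself lies in an intron of Ergic1. With that TSS left out, region 9 is given to Ergic1 and the other 8 regions stay with Dusp1.

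WT G had 9 Dusp1 peaks with no overlapping WT A peak. Their fold enrichment ranged from 5.41 to 9.03 with a median of 5.80, and the strongest lay at 6.93 kb in an intron of AC122252.2 (fold enrichment 9.03, −log10 q 10.5). The Dusp1 promoter was among them, with a WT G peak at −0.876 kb (fold enrichment 5.49, −log10 q 4.80), where the local background was 2.15 times the genome-wide level. The nearest WT A summit to any Dusp1 TSS was 2.75 kb away, and the nearest WT G summit 0.710 kb.

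Dusp16 and Dusp10 also encode phosphatases with a preference for JNK and p38. Dusp16 (ENSMUSG00000030203.17, minus strand, chr6:134715468-134792625) had 2 peaks in WT A and 3 in WT G but none in either KO list. Its single shared region (chr6:134802414-134803023, at −10.1 kb, intergenic) ranked 3057 of 3423. With a highest WT A −log10 q of 2.99, this region was no longer shared at −log10 q of at least 3 or 5. In it the strongest WT A peak had a fold enrichment of 3.41 on 22 fragments, and the WT G peak 5.18 on 14 fragments. The local background there was 3.99 times the genome-wide level in WT A and 3.44 times in WT G, the highest of any peak of the 8 genes in each list. At the Dusp16 promoter WT G had a peak at −0.066 kb (fold enrichment 7.74, −log10 q 8.04, 11 fragments), with none in WT A.

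Dusp10 (ENSMUSG00000039384.8, plus strand, chr1:184013302-184075636) had no peak in any list. The nearest WT summits were 230 kb and 231 kb from its TSS, although 349 kb of genome were nearest to that TSS. The gene record starts well upstream of the TSS used here. When that start was used as the only TSS, Dusp10 gained 2 shared regions, and so it did when the comprehensive transcript set was used.

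Dusp2 and Dusp4 encode further inducible nuclear phosphatases, Dusp2 being known mainly from blood cells. Neither had a peak in any of the 4 lists. For Dusp2 (ENSMUSG00000027368.6, chr2:127336159-127338376) the nearest summits were 256 kb away in WT A and 255 kb in WT G, and for Dusp4 (ENSMUSG00000031530.6, chr8:34807297-34819894) 97.0 kb and 96.9 kb. The genome nearest to the Dusp2 TSS spanned 34.0 kb and that nearest to the Dusp4 TSS 406 kb, more than the 90.0 kb of Dusp1 and the 317 kb of Dusp6. The lists hold only called peaks, so signal below the calling threshold was not analysed here.

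Dusp6 encodes MKP-3, the cytoplasmic phosphatase of ERK and one of its standard feedback inhibitors. The gene (ENSMUSG00000019960.8) lies on the plus strand at chr10:99263231-99267489, with 8 peaks in WT A and 10 in WT G, and 1 in each KO list. It had 7 shared regions, a number reached or passed by 41 of the 1933 genes. All 7 lay downstream of the gene, between 5.65 and 197 kb from its TSS.

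The first pair of Dusp6 regions was just past the gene, at the long noncoding RNA gene Gm34921. Region 1 (chr10:99268526-99269233), at 5.65 kb in an exon of Gm34921, had a fold enrichment of 9.07 (WT A) and 8.38 (WT G), with −log10 q of 12.4 and 9.26 and no KO peak. Region 2 (chr10:99270100-99270883), at 7.26 kb in the promoter of Gm34921, had 10.2 in WT A and 9.03 in WT G, against 7.63 (KO A) and 6.20 (KO G). It was the only region of the 8 genes with a peak in all 4 lists, and both WT values were above both KO values. Its −log10 q was 15.8, 10.5, 7.30 and 4.15 in the same order, on 25, 13, 14 and 11 fragments at the summit. The KO A summit was 4 bp and the KO G summit 59 bp from that of WT A, so the KO peaks were at the same place.

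The next 3 Dusp6 regions lay within B530045E10Rik. Region 3 (chr10:99302242-99302535, intron, 39.2 kb) was the weakest shared region of the 8 genes, at place 3385, with a fold enrichment of 5.15 (WT A) and 4.51 (WT G). Region 4 (chr10:99353833-99354218, exon, 90.8 kb) had 5.54 in WT A and 9.03 in WT G. Region 5 (chr10:99383685-99384251, intron, 121 kb) had 7.50 in WT A on 18 fragments and 7.74 in WT G on 11 fragments.

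The last pair was at 197 kb. Region 6 (chr10:99459752-99460310), in the promoter of Gm34983, was the highest-ranked shared region of the 8 genes, at place 390 of 3423, with a fold enrichment of 10.6 (WT A) and 9.67 (WT G), −log10 q of 15.8 and 11.8, and no KO peak. Region 7 (chr10:99460370-99460697), in the promoter of Gm35035, had 5.15 and 8.38. Both are given to Dusp6 because no other protein-coding TSS is nearer, and none of the 7 regions stayed with Dusp6 when the TSSs of noncoding genes were admitted.

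At the Dusp6 promoter itself WT A had a peak at −0.056 kb (fold enrichment 6.32, −log10 q 6.16, 15 fragments), the only WT A peak of the 8 genes outside a shared region. Its window, given with the sequences above, held none of the motifs. The nearest WT G summit was 5.71 kb from the TSS. WT G in turn had 3 Dusp6 peaks that WT A lacked, at 162, 168 and 180 kb, with fold enrichments of 4.51 to 5.80.

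Dusp5 encodes the nuclear phosphatase of ERK. The gene (ENSMUSG00000034765.6) lies on the plus strand at chr19:53529109-53542431 and had 5 peaks in WT A and 12 in WT G, and 0 (KO A) and 1 (KO G) in the KO lists, with 3 shared regions, a number reached or passed by 339 of 1933 genes. Regions 1 and 2 were neighbors in intergenic sequence upstream. Region 1 (chr19:53476815-53477606, −51.9 kb) had a fold enrichment of 10.5 (WT A) and 7.19 (WT G), and of 6.15 in KO G, with no peak in KO A. Its KO G summit was 26 bp from that of WT A, nearer than the WT G summit, which was 275 bp away, the largest distance between WT summits among the 21 regions. Region 2 (chr19:53479442-53479921, −49.4 kb) had 7.50 in WT A and 8.18 in WT G and no KO peak.

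Region 3 (chr19:53535157-53536509), at 6.72 kb in an intron of Dusp5, ranked highest of the 3, at place 580. Its strongest peak reached a fold enrichment of 8.29 (WT A) and 10.3 (WT G), with −log10 q of 10.2 and 13.2, and the 2 summits were 4 bp apart. WT A split this region into 3 peaks where WT G had 1. WT G had 9 further Dusp5 peaks that WT A lacked, with fold enrichments of 4.51 to 7.74, the strongest at −64.1 kb in the promoter of the noncoding gene Mirt1.

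Dusp3 encodes VHR, a small phosphatase without the MAP kinase binding domain of the MAPK phosphatases. The gene (ENSMUSG00000003518.13, minus strand, chr11:101971143-101987013) had 1 peak in each WT list and none in the KO lists, and these formed 1 shared region in its intron (chr11:101981971-101982382, 1.33 kb). This region went to another gene with 1 TSS per gene, and at −log10 q of at least 5 it was no longer shared. The fold enrichment was 5.54 in WT A and 7.74 in WT G. Only 11.2 kb of genome is nearest to a Dusp3 TSS, because Sost and Cfap97d1 lie close by, and further peaks within the Dusp3 gene went to these neighbors. The strongest peak of each WT list given to Sost near the 3′ end of Dusp3 had a fold enrichment of 8.68 in WT A (chr11:101972103-101972989) and 11.6 in WT G (chr11:101972118-101973229), and a further WT G peak there 7.09 (chr11:101971650-101971968). At the promoter that Dusp3 shares with Cfap97d1, WT A had 2 peaks of fold enrichment 5.54 each and WT G 1 of 8.38 (chr11:101983638-101984413).

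**Figure D2:**
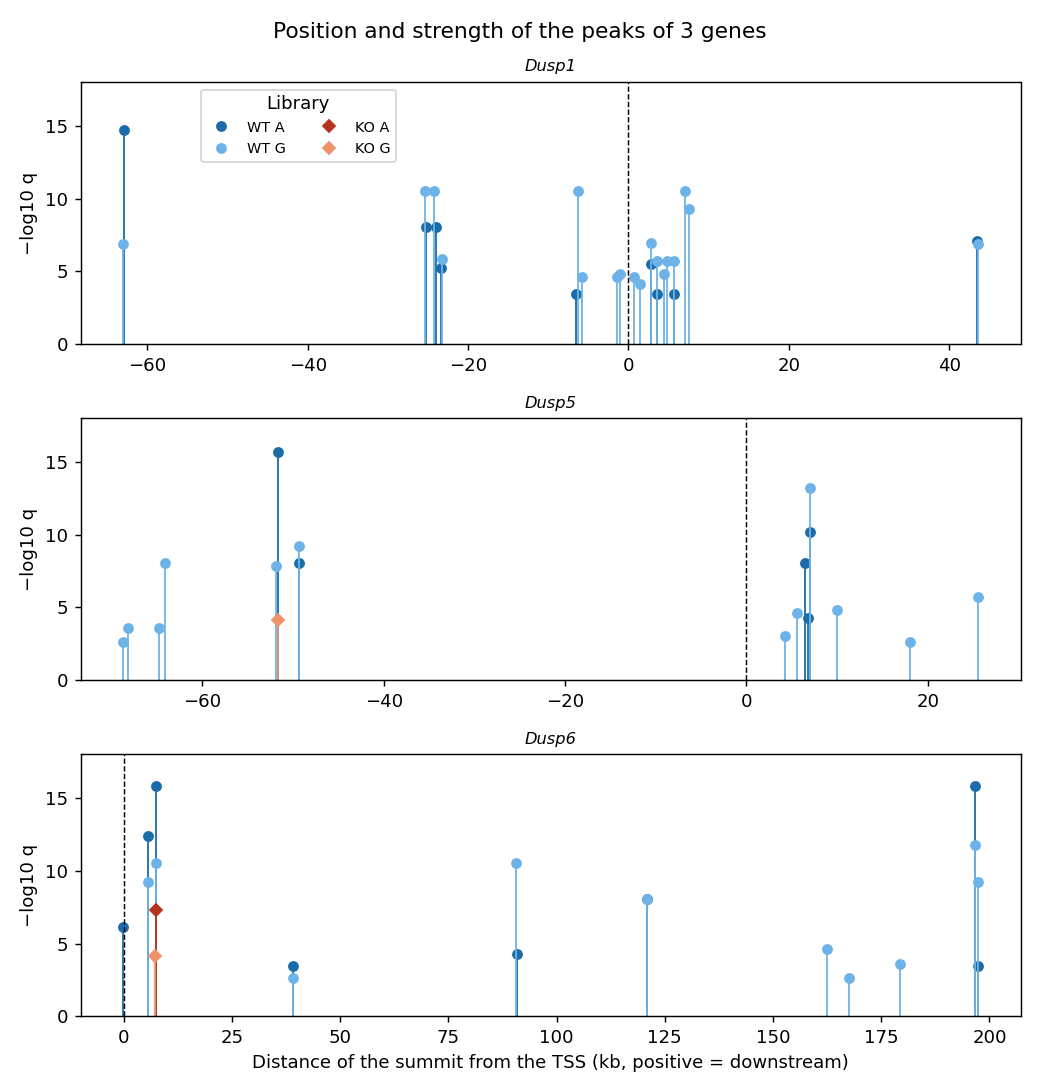
Position of every peak of Dusp1, Dusp5 and Dusp6 by its summit, in kb from the main TSS (dashed line, positive downstream in the direction of transcription), against its −log10 q, with 1 color per library and diamonds for KO peaks. All Dusp6 peaks but the WT A promoter peak lie downstream, the Dusp1 peaks lie on both sides of the TSS, Dusp1 region 9 appears at the far left because its distance here is counted from the main TSS, and the 3 KO peaks fall on Dusp5 region 1 and Dusp6 region 2.

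Among the 21 shared regions 13 lay downstream and 8 upstream of the nearest TSS of their gene. By annotation 4 were in promoters (19.0%, exact 95% interval 5.45 to 41.9), 1 at a termination site (4.76%), 4 in exons (19.0%), 9 in introns (42.9%) and 3 in intergenic sequence (14.3%, exact 95% interval 3.05 to 36.3). Over all 3423 shared regions these shares were 10.8%, 3.45%, 3.42%, 50.8% and 31.5%. All 4 promoter regions of the 8 genes, and 3 of the 4 in exons, belonged to genes other than the phosphatase they were nearest to. The median distance to the TSS was 23.2 kb for the 21 regions and 15.7 kb for all shared regions, with 42.9% and 39.4% within 10 kb.

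The 21 regions were of middling strength. Their median place was 1853 of 3423, and 10 of the 21 stood at or above place 1711, the median of all shared regions. Peaks of the 8 genes had a median fold enrichment of 6.32 in WT A, equal to that of the whole WT A list, and of 6.45 in WT G, where the list's median was 5.80. By −log10 q 11 of 25 peaks were above the list's median in WT A and 30 of 44 in WT G, with 4 and 8 in the top 10% of the lists. The fold enrichment was higher in WT G than in WT A at 15 of the 21 regions (71.4%) and at 60.4% of all shared regions. Neither share compares binding between the libraries, because the pseudocount lowers the ratio more in WT G, which had the lower genome-wide background. Which regions would change order without the pseudocount was not tested. The summits of both WT libraries were a median of 62 bp apart, against 96 bp over all shared regions.

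**Figure D3:**
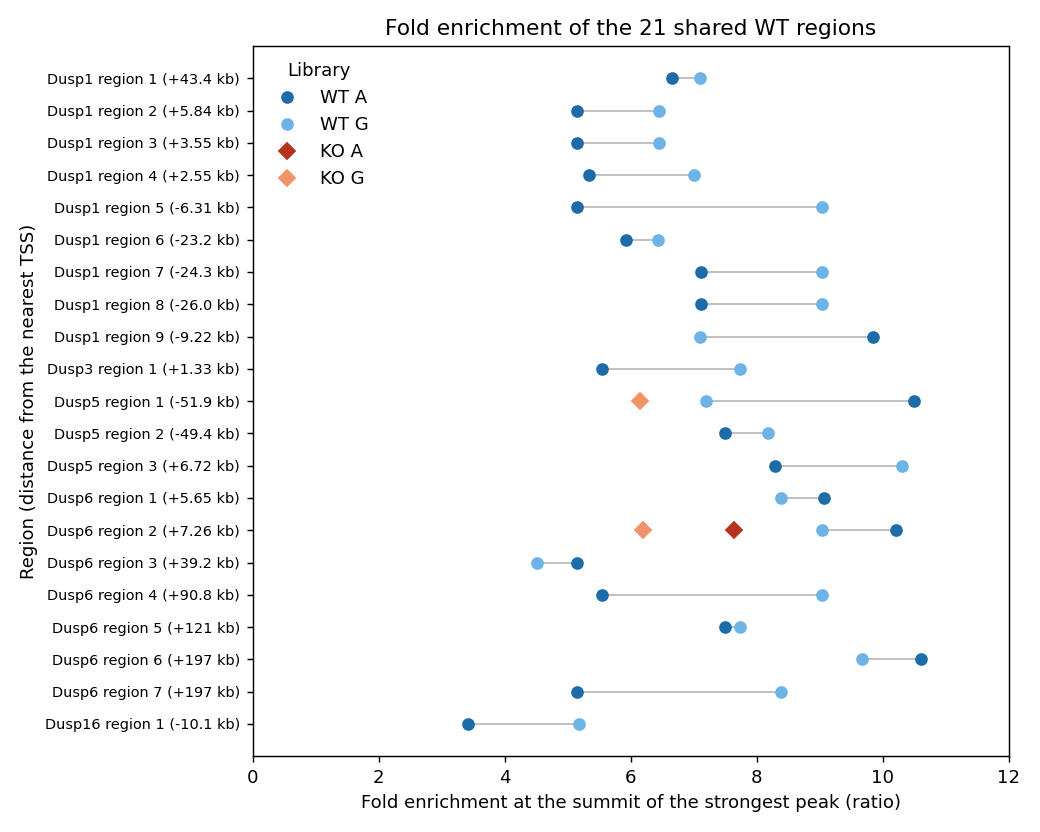
Fold enrichment (a ratio, on a linear axis from 0) of the strongest peak in each of the 21 shared regions, with circles for WT A and WT G joined by a gray line and diamonds for KO libraries where a peak was called. The 21 regions ran from 3.41 in WT A at Dusp16 to 10.6 in WT A at Dusp6 region 6, and only Dusp5 region 1 and Dusp6 region 2 have a KO value, below both WT values in each case.

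Of the 25 WT A peaks 24 lay in a shared region (96.0%, exact 95% interval 79.6 to 99.9), against 83.2% of the whole WT A list. Of the 44 WT G peaks 21 did (47.7%, exact 95% interval 32.5 to 63.3), against 36.1% of the WT G list. The 23 WT G peaks without a WT A counterpart had a median −log10 q of 4.64, and the 21 with one a median of 8.04. They were spread as 9 at Dusp1, 9 at Dusp5, 3 at Dusp6 and 2 at Dusp16. Which of them the WT A library would show at other depths was not tested.

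A KO peak overlapped 2 of the 21 shared regions (9.52%, exact 95% interval 1.17 to 30.4), where 5.87% of all shared regions had one, and 19 had none. As a description, the −log10 p of each region was set beside the weakest peak that each KO list contains, which was 6.88 in KO A and 6.18 in KO G. In both WT libraries 19 of the 21 regions were at or above both values, and 17 of these had no KO peak. The regions were selected for a peak in both WT lists, so their WT values are high by selection, and nothing about the KO signal is read from this count. Over all shared regions 3134 were at or above both, and 2935 of these had no KO peak. The p-values depend on the depth of each library, and the lists give no signal where no peak was called, so the size of the loss at a region could not be measured.

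**Figure D4:**
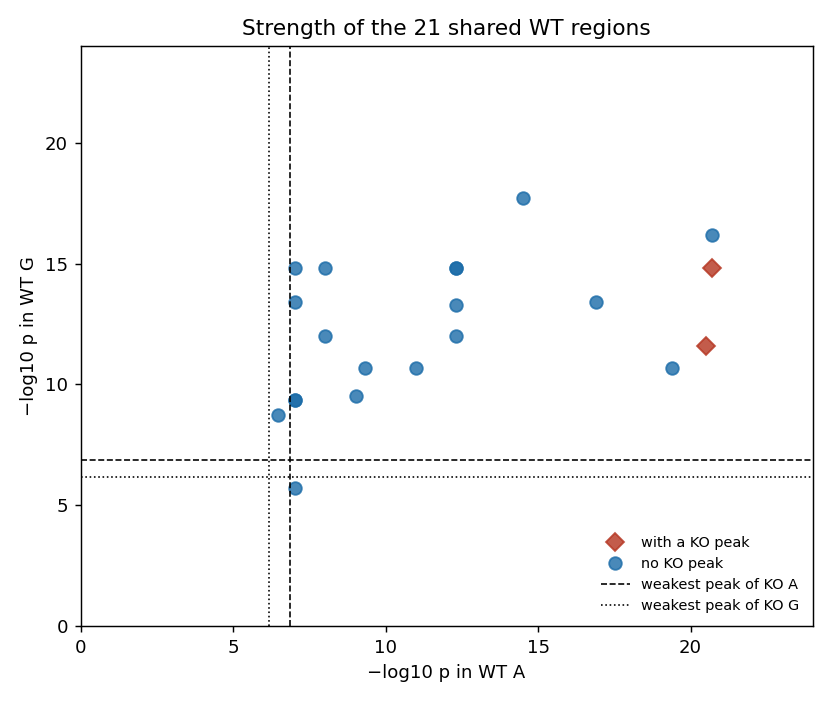
−log10 p of the strongest peak of WT A (horizontal) and WT G (vertical) in each of the 21 shared regions, with diamonds for the 2 regions that have a KO peak; dashed and dotted lines mark the weakest peak of the KO A and KO G lists. Dusp16 region 1 falls below the KO A line in WT A and Dusp6 region 3 below both lines in WT G, and the other 19 regions are above all lines.

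Binding motifs were searched on both strands within 50 bp of 1 summit per shared region, that of its stronger peak by −log10 q. The 21 regions had a median width of 567 bp, so most of their sequence was not searched. A DR1 element, the site of RXR with PPARγ, was searched as AGGTCANAGGTCA with at most 2 mismatches in the 12 fixed bases. None of the 21 regions held one in its window. This allows a share of up to 14.3% by the limit of 3 counts and 16.1% by the exact 95% interval. Both limits take the regions as independent, though Dusp1 held 9 of them and Dusp6 7. Of all shared regions 6.34% held one, as did 1.55% of windows of the same length centered 500 bp to either side. Of the 42 such windows beside the 21 regions 2 held one. The share over all shared regions lies below both limits, and the difference was not tested. The closest match had 3 mismatches in 4 regions, 4 in 7, 5 in 9 and 6 in 1. With the window widened to 100 bp on each side, Dusp6 region 4 held 1 match with 2 mismatches, GGGTCAAAGATCA on the minus strand at chr10:99354029-99354041.

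A DR4 element (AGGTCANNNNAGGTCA, at most 2 mismatches), the kind of site that LXR and RXR share, was found in Dusp1 region 9 alone, as GGGTCATCCCAGCTCA at chr17:26571502-26571517, and in 1.90% of all shared regions. The PU.1 motif AGGAAGTG follows it in the same window and shares its last base, so both are covered by 1 run of capitals above. PU.1 also matched on the minus strand of Dusp6 region 1, which makes 2 of 21 regions (9.52%), against 4.62% of all shared regions. No region held a DR5 element (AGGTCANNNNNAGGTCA, at most 2 mismatches), which 2.57% of all shared regions did.

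The single hexamer AGGTCA, 1 unit of these repeats, occurred in 3 of the 21 regions, Dusp5 regions 1 and 2 and Dusp6 region 3 (14.3%), and in 15.2% of all shared regions. At Dusp5 region 1 the match lay within the WT A peak but outside the WT G peak (chr19:53476815-53477444). In the flanking windows it occurred in 6 of 42 beside the 21 regions, the same share as at their summits, and in 6.97% of those beside all shared regions. The C/EBP motif, TTGCNNAA or TTACNNAA, occurred in 4 (19.0%), all of them at Dusp6 (regions 2, 4, 5 and 7), and in 19.4% of all shared regions. In region 2, the one with peaks in all 4 lists, the C/EBP match TTGCCCAA was centered 25 bp from the summit. The AP-1 motif TGACTCA occurred in Dusp1 region 5 alone, where 2 copies lay 4 and 29 bp from the WT G summit, and in 5.49% of all shared regions. Both copies lay outside the WT A peak of that region (chr17:26514925-26515040). Neither the RUNX motif TGTGGTT nor the CRE TGACGTCA was found, and 5.93% and 0.292% of all shared regions held them. In the 42 flanking windows of the 21 regions PU.1 matched 1 and C/EBP 3, and DR4, DR5, AP-1, RUNX and CRE matched none. In 11 of the 21 regions no listed motif was found, among them the highest-ranked one, Dusp6 region 6, and Dusp5 region 3. A match is a string of letters and not a measured site, and the absence of a match says nothing about the factors bound there.

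Other genes of the pathway were taken from lists of textbook members. Of 50 such genes in the annotation 5 were nearest to a shared region (10%), close to the 8.82% of all protein-coding genes. None of the MAPK phosphatase genes Dusp7, Dusp8 and Dusp9 was, and of 13 other dual specificity phosphatase genes only Dusp13 was. Among 10 MAP kinase genes it was Mapk14, which encodes p38α, and among 8 immediate early and ETS genes induced by ERK it was Egr3, Ier3 and Ier5. No gene of the 7 MAP kinase kinases, 3 RAF kinases or 6 Sprouty and Spred inhibitors was. By the sum of −log10 q ranks the strongest of these regions was 1 of the 2 of Egr3, a zinc finger transcription factor of the immediate early response, at −11.3 kb (chr14:70065385-70066438), with a fold enrichment of 13.4 (WT A) and 11.0 (WT G), above every region of the 8 phosphatase genes in both libraries. The highest-ranked of the 3 Mapk14 regions (chr17:28697148-28699075, intron, 5.54 kb) had 6.82 and 9.94, and the single Dusp13 region (chr14:21745136-21745621, −2.50 kb) 6.32 and 9.67. No gene of these lists was nearest to a KO peak.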

How the data were processed

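RXRα HT-ChIPmentation was performed on sorted AMs of 2 WT and 2 KO libraries. The authors trimmed reads with cutadapt, aligned them to mm10 with Bowtie2, filtered them with SAMtools and called peaks per library against the input with MACS3 at q of at most 0.05, without pooling. The deposited fold enrichment is a ratio of summit pileup to local background (pseudocount 1). At the same summit the authors gave −log10 of p and of q, the summit position as an offset from the peak start, and a score equal to 10 times −log10 q without its decimals. The input sample's own file was not analysed here.

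Lists were compared with scipy 1.17.1, pandas 2.3.3, numpy 2.4.6 and matplotlib 3.10.9 under Python 3.11.15, after the functions were tested on simulated data. The nearest TSS was taken over all transcripts of protein-coding genes in the GENCODE M21 basic set (mm10). Midpoints were annotated, in this order, as promoter (from 1 kb before to 100 bp after a TSS), termination site, exon, intron or intergenic, over all gene types. Fragments at summits, and from them relative depth, were solved from the fold enrichment and −log10 p; depth further assumes that the shortest peak of a list has the fragment length. Exact (Clopper-Pearson) 95% intervals, and the 3 counts that a share of 0 allows, cover counting error only. No read counts were used, and no test was run. All 8 genes and all their shared regions were described. Sequences were printed for the 5 regions with the lowest sum of −log10 q ranks and those with a DR1 element or a KO peak, others being named as added, and of the pathway lists the 3 genes with the strongest region were described. The members, lists and motifs were chosen with earlier results of these data known. Alternatives were another TSS set, position, q threshold, list length, distance limit, overlap and motif setting, and leaving out each library.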

Additional observations from a re-analysis of the deposited data

How the results depend on the processing

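Of 64 values under 18 settings, 50 kept within 1.5 times of those reported. These 50 include the DR1 count wherever it stayed at 0, which a setting that only removes regions or matches could not raise. With TSSs of all gene types, 5 shared regions stayed with 3 of the 8 genes (3 at Dusp1, 1 at Dusp3 and 1 at Dusp16, with 0 at Dusp5 and 0 at Dusp6), all 5 without a KO peak, and with no KO peak left no ratio could be formed. The other 16 were nearer to a TSS of another gene type. At −log10 q of at least 5 the WT to KO ratio was 42.0, with 13 shared regions at 3 genes (6 at Dusp1, 3 at Dusp5, 4 at Dusp6 and 0 at Dusp3 or Dusp16), 12 of them without a KO peak. With an overlap of at least 50% of both peaks, 7 shared regions at 3 genes remained, and all 7 were without a KO peak under the same rule. Dusp6 region 2 is among them, since its KO peaks cover under 50% of the WT peaks. The cause was not tested. Without WT A, 44 regions of WT G alone counted, 42 of them with no KO peak, and with WT G or WT A left out the regions ranged from 25 to 44. With each of the 4 libraries left out in turn, those with no KO peak ranged from 19 to 42 and the ratio from 16.7 to 34.5. A DR1 element was found in 4 regions with at most 3 mismatches and in 1 where the window reached 100 bp to either side. With 1 TSS per gene 16 regions were shared, 3 at Dusp1, 2 at Dusp10 and 0 at Dusp3, and the ratio was 18.7. Chosen after seeing the data, the comprehensive transcript set gave 23 regions at 6 genes, and leaving out the distal Dusp1 TSS gave 20 regions. With the letters A and G as a replicate block the ratio was 23.5 (25.0 within A and 22.0 within G). The letters pair the libraries by name only. The depth of WT G, with 6 to 15 fragments at the summits of the peaks given to the 8 genes, limits what its weaker peaks can show.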
